A study of Homo sapiens with 36 samples.

Results

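The genes described here are 42 genes of DNA replication and nucleotide synthesis, picked by symbol for what their products do. All 42 were present in both deposited tables, out of 13534 genes listed in either one. They fall into 6 roles: 5 origin licensing genes, 12 genes of the replicative helicase, 7 of the polymerases and primase, 7 of the sliding clamp, its loader and Okazaki fragment processing, 5 of nucleotide synthesis, and 6 of replication-coupled chromatin and fork protection. Human melanoma cell lines IGR37 and 501mel were grown in medium with fetal bovine serum, and their RNA was sequenced from transcript 3' ends (QuantSeq Forward). Stearoyl-CoA desaturase (SCD), the enzyme that puts a double bond into saturated fatty acids, was inhibited or silenced, and the study asks how SCD bears on melanoma cell state.

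Each line had 6 groups of 3 libraries, 36 libraries in all. SCDi_A93 cells received 1 uM of the SCD inhibitor A939372 for 48 hours, and their controls were given DMSO. Cells labelled siSCD_1 received 20 nM of the siRNA siSCD#1 for 48 hours, against siCTR_1 cells given 20 nM of control siRNA. Cells labelled siSCD_2 received 20 nM of siSCD#2 for 48 hours, against siCTR cells, again with 20 nM control siRNA. The siSCD_1 pair stands in a table of its own, normalised apart from the rest, so each treated group was set only against the control in its own table. Nothing in the labels says that the 3 libraries of a group came from separate cultures, so p-values measure the spread between libraries, which may be technical.

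Replication starts when the origin recognition complex, CDC6 and CDT1 load the MCM ring onto DNA in G1, a step called licensing. In S phase CDC45 and the GINS complex join the ring to make the active helicase, behind which primase and the polymerases copy both strands around the PCNA clamp. Ribonucleotide reductase, thymidylate synthase and thymidine kinase supply the building blocks, and many of these genes are known targets of E2F factors, with transcripts that are high in dividing cells. In bulk RNA, fewer cells in S phase and less of a transcript in each cell cannot be told apart.

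Levels are log2 CPM values, read counts scaled to library size and put on a log2 scale, as the authors normalised them, and a change is treated minus control on that log2 scale, ± its standard error, from limma. P-values were adjusted by Benjamini-Hochberg over the full table, and a gene is called lower or higher at an adjusted p under 0.05. Gene reads per library ran between 4078450 and 6685898 in the larger table and between 2402788 and 7483010 in the siSCD_1 table. SCD itself had 7.46, 7.33 and 7.49 log2 CPM with siSCD_1 in IGR37 against 10.13, 10.04 and 10.10 log2 CPM with siCTR_1, and 6.83, 7.06 and 6.93 log2 CPM with siSCD_1 in 501mel against 9.80, 9.81 and 9.75 log2 CPM with siCTR_1. It had 6.52, 5.32 and 6.09 log2 CPM with siSCD_2 in IGR37 against 10.16, 10.16 and 10.05 log2 CPM with siCTR, and 5.05, 4.95 and 5.09 log2 CPM with siSCD_2 in 501mel against 9.23, 9.49 and 9.36 log2 CPM with siCTR. The siRNAs thus lowered it by 2.67 and 2.85 (siSCD_1) and by 4.15 and 4.33 (siSCD_2) in IGR37 and 501mel, with no overlap. With the inhibitor SCD had 10.37, 10.42 and 10.31 log2 CPM in IGR37 against 9.77, 9.73 and 9.72 log2 CPM under DMSO, and 9.65, 9.73 and 9.79 log2 CPM in 501mel against 9.47, 9.33 and 9.50 log2 CPM under DMSO. It rose in IGR37 (0.63 ± 0.16, adjusted p = 0.00215) and was not called in 501mel (0.29 ± 0.16, adjusted p = 0.573). The compound acts on the protein, so this transcript does not check exposure. All 9 melanocyte lineage markers had reads in every group, with a summed level of at least 3080 CPM in each library. At most 4 of the fibroblast, epithelial or blood and endothelial markers of a list were in the tables, with a summed level of at most 34.8 CPM.

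The inhibitor and the siRNAs lowered most of the replication genes in IGR37, while in 501mel only the siRNAs did. In IGR37, 39 of the 42 genes fell with the inhibitor, where 23.1% of all genes tested were called lower and 44.1% in either direction. All 42 fell with siSCD_1 (19.4% of all genes) and 30 with siSCD_2 (22.7%, and 45.9% in either direction). In 501mel, 29 fell with siSCD_1 (22% of all genes), 29 with siSCD_2 (19.5%) and 0 with the inhibitor (0.0599%). Fitted on the compared groups alone, 39 fell with siSCD_1 and 26 with siSCD_2 in IGR37, where MCM3, PRIM1 and UHRF1 lost their siSCD_1 calls (adjusted p = 0.0824, 0.0792 and 0.134).

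Just 2 increases were called, CDC6 with siSCD_2 in IGR37 and DUT with siSCD_1 in 501mel, where 23.2% and 20.9% of all genes were called higher. The median change of the 42 genes in IGR37 was -0.98 with the inhibitor, -0.96 with siSCD_1 and -0.59 with siSCD_2, and in 501mel it was 0.00 with the inhibitor, -0.49 with siSCD_1 and -0.51 with siSCD_2. Treated libraries lay below every control library for 39, 42 and 31 of the genes in IGR37 with the inhibitor, siSCD_1 and siSCD_2 (29.4%, 25% and 25.1% of all genes), and for 34 and 33 in 501mel with siSCD_1 and siSCD_2 (27% and 23.6% of all genes). The median over all genes lay between -0.01 and 0.01 in each of these comparisons. In IGR37, 20 of the genes were called and at least 2-fold lower with the inhibitor, 20 with siSCD_1 and 11 with siSCD_2. In 501mel these numbers were 5 with siSCD_1 and 3 with siSCD_2. The share of all genes past that cut was not counted, so these numbers have no background beside them.

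With the inhibitor in 501mel none of the replication genes was called, and 39 of all genes were (0.292%). None of the 42 reached an unadjusted p under 0.05 with limma over all groups. With limma on these 2 groups alone 8 did, and with limma voom on reads 2 did, none of them past the adjusted threshold. The share of all genes at an unadjusted p under 0.05 was not counted. The 95% interval of every one of the 42 changes lay above -1, a 2-fold fall, and the lowest bound was -0.92 for UHRF1. POLD1, the catalytic subunit of polymerase delta, had the largest positive value of this comparison, with 5.64, 5.46 and 5.33 log2 CPM in inhibitor libraries and 4.96, 5.0 and 5.24 log2 CPM in DMSO libraries (0.41 ± 0.22, adjusted p = 0.568). UHRF1 had the largest negative one, with 5.75, 4.65 and 5.70 log2 CPM in inhibitor libraries and 5.81, 5.59 and 5.90 log2 CPM in DMSO libraries (-0.40 ± 0.26, adjusted p = 0.65). The POLD1 groups did not overlap, while the UHRF1 groups did, with 1 low inhibitor library. The largest values of the other 4 roles were 0.29 for GINS4, 0.26 for ORC1, 0.23 for FEN1 and -0.07 for DUT. Of the 42 genes, 32 had overlapping groups, 5 had every treated library below every DMSO library (8.9% of all genes) and 5 had every treated library above. The share of all genes with every treated library above was not counted.

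**Figure D1:**
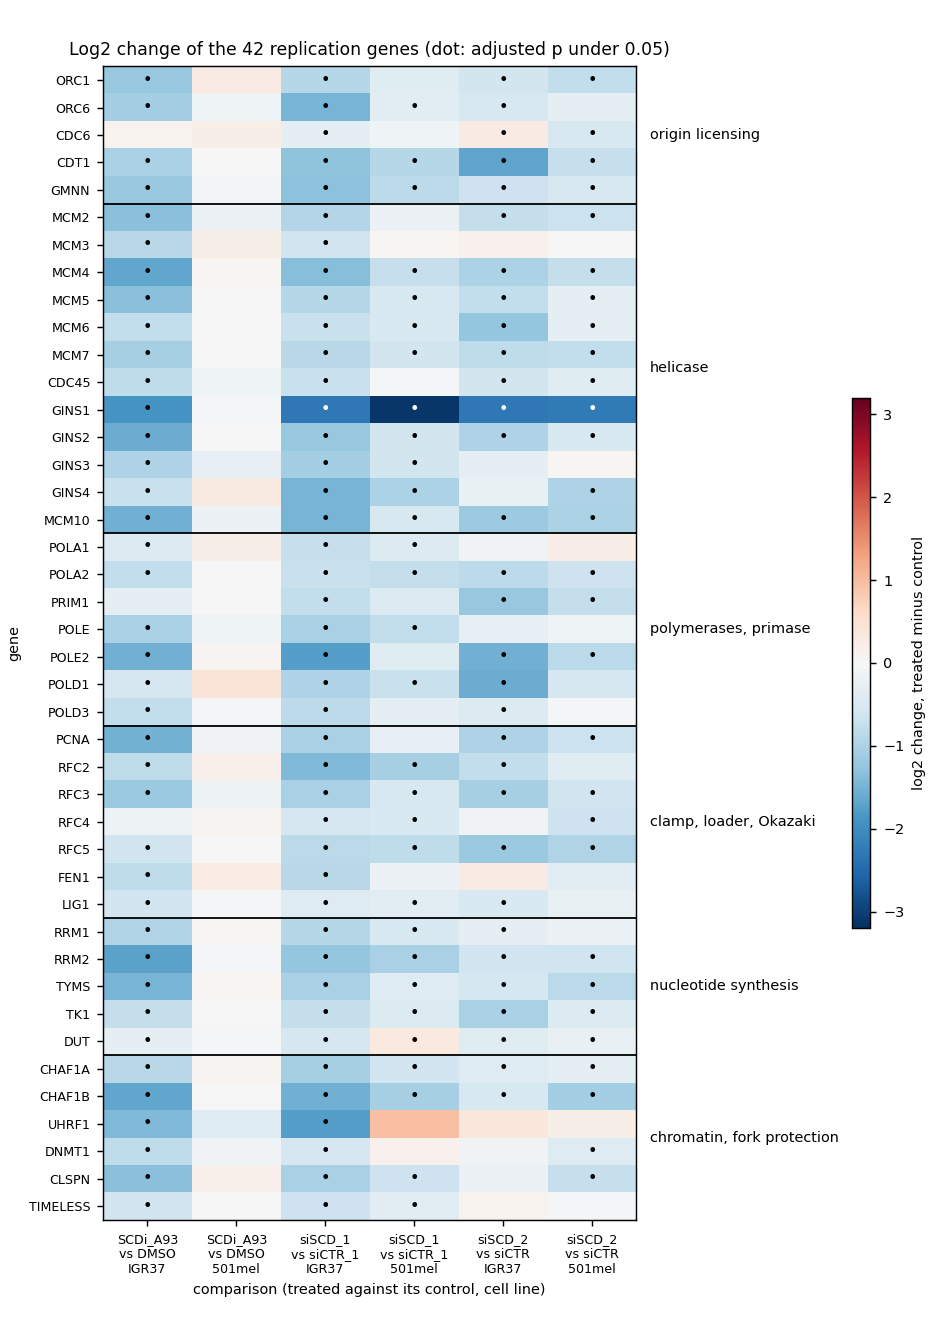
Log2 change, treated minus control, of each of the 42 genes (down the page, in blocks by role) in the 6 comparisons (across). Blue is lower and red higher in treated cells, and a dot marks an adjusted p under 0.05; the 501mel inhibitor column has no dot, while every cell of the IGR37 siSCD_1 column has one.

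The share of gene reads that came from the 42 genes fell in the same 5 pairs. In IGR37 it averaged 0.22% ± 0.0039 with the inhibitor against 0.424% ± 0.0068 under DMSO, 0.247% ± 0.015 with siSCD_1 against 0.453% ± 0.0039 with siCTR_1, and 0.291% ± 0.017 with siSCD_2 against 0.447% ± 0.0029 with siCTR (SD, n = 3 each). In 501mel it averaged 0.576% ± 0.0079 with the inhibitor against 0.570% ± 0.023 under DMSO, 0.497% ± 0.0099 with siSCD_1 against 0.564% ± 0.015 with siCTR_1, and 0.358% ± 0.014 with siSCD_2 against 0.506% ± 0.011 with siCTR (SD, n = 3 each). The treated and control ranges overlapped only for the inhibitor in 501mel.

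The spike-in RNA that the libraries also held took a larger share of reads in the siRNA groups: 5.93% against 4.52% for siSCD_2 in IGR37, 6.24% against 4.26% for siSCD_2 in 501mel, 5.19% against 4.35% for siSCD_1 in IGR37 and 5.41% against 4.04% for siSCD_1 in 501mel. It was 4.58% against 4.21% for the inhibitor in IGR37 and 3.14% against 4.0% for the inhibitor in 501mel. Scaled on the spike-ins, the median of all genes moved by -0.40 and -0.51 for siSCD_2 in IGR37 and 501mel, by -0.12 for siSCD_1 in 501mel and by 0.48 for the inhibitor in 501mel, and by under 0.1 in the other comparisons. That scaling shifts every gene of a library by the same amount, so the median of the replication genes had to move by about as much. It was then -0.99 and -1.02 with siSCD_2 in IGR37 and 501mel. With the inhibitor in 501mel it was 0.48, and 8 of the replication genes and 1645 of all 13364 genes were called higher.

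**Figure D2:**
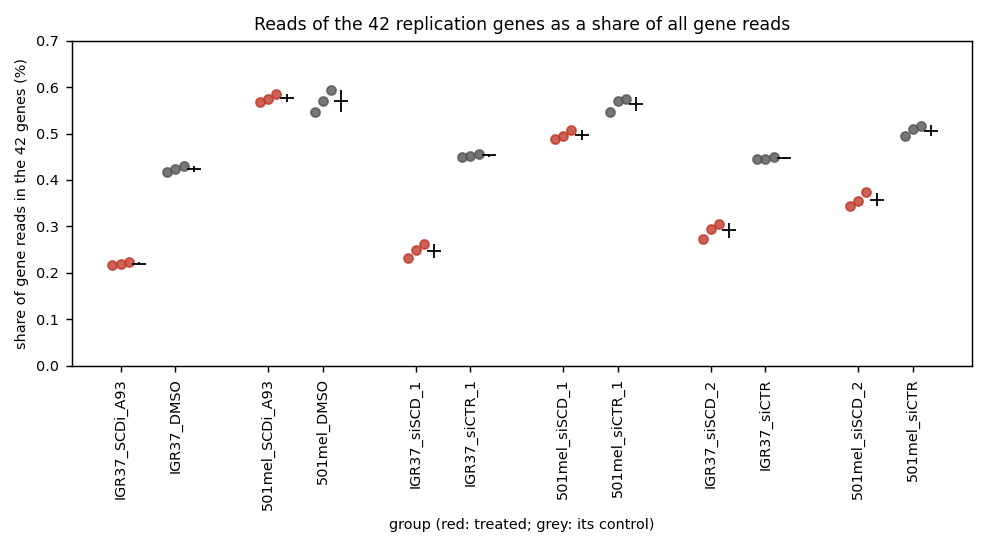
Share of gene reads that came from the 42 genes (percent, vertical axis) in each library of the 12 groups; points are libraries, and the black mark and bar are mean and SD of 3. Treated libraries (red) lie below all their controls (grey) except for the inhibitor in 501mel.

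The promoters of these genes held an E2F-type word more often than promoters at large. RefSeq promoters (250 bases before and 50 after the start, GRCh38.p14) were found for 38 of the 42 genes, without MCM4, MCM5, GINS4 and POLD3. The words searched on both strands were TTTCCCGC, TTTGGCGC, TTTCGCGC and TTTGCCGC, counting overlapping matches separately. They occurred in 22 of the 38 genes (57.9%), against 3.99% of all 27305 genes and 3.31% of all 35116 promoters in the table. The word CCAAT was in 23 of the 38 (60.5%), against 39.7% of all genes. Median changes of genes with and without an E2F word were -1.06 against -0.81 with the inhibitor in IGR37, -1.03 against -0.91 with siSCD_1 in IGR37, -0.62 against -0.59 with siSCD_2 in IGR37, -0.46 against -0.49 with siSCD_1 in 501mel, and -0.51 against -0.48 with siSCD_2 in 501mel. Printed here, 5' to 3' on the gene's own strand with E2F words in capitals, are the gene with the largest falls (GINS1), the gene with the most matches (MCM6, 4 matches in 2 overlapping pairs), the sliding clamp (PCNA, 1 of its 2 promoters in the table; the other holds no such word) and a gene that fell in only 2 comparisons (CDC6).
GINS1 promoter, chr20:25407423-25407722, plus strand: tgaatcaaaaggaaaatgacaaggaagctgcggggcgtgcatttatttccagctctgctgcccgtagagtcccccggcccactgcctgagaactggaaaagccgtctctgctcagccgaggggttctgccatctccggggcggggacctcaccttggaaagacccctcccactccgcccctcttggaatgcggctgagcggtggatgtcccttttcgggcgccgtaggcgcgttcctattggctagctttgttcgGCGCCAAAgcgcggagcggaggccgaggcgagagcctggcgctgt
MCM6 promoter, chr2:135876394-135876693, minus strand: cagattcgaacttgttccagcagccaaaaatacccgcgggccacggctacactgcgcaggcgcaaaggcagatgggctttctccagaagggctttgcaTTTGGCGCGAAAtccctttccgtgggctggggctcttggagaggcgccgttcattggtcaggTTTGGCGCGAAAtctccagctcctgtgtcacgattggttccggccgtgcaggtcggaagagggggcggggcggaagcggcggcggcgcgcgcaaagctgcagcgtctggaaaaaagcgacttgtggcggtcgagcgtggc
PCNA promoter, chr20:5126573-5126872, minus strand: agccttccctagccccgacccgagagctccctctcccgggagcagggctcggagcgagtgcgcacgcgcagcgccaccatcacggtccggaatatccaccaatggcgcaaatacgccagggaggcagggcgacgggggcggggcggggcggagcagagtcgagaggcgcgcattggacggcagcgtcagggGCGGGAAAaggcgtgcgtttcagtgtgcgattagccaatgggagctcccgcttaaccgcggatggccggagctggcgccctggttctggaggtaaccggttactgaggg
CDC6 promoter, chr17:40287629-40287928, plus strand: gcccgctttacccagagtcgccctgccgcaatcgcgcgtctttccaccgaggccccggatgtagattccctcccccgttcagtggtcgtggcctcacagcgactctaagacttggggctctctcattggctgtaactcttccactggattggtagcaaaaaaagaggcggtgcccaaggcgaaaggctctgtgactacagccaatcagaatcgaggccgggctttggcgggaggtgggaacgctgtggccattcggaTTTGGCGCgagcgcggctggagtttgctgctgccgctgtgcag
GINS1 and CDC6 hold the same E2F word, on opposite strands. GINS1 fell in 5 of the 6 comparisons and CDC6 in 2, and the part of the word in these changes was not tested. E2F-type words other than the 4 named were not searched, so the 2 promoters may differ in them. A match describes these letters only and shows no binding.

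GINS1, a helicase gene, had the largest fall of all 42 genes in each of the 5 comparisons where genes were called lower. It encodes a subunit of the GINS complex, which joins the MCM ring and CDC45 to make the active helicase. With the inhibitor in IGR37 it had 4.92, 5.15 and 5.06 log2 CPM, against 6.99, 6.88 and 6.92 log2 CPM under DMSO, and was 3.69-fold lower (-1.89 ± 0.14, adjusted p = 5.03e-11). The groups lay far apart, with 146 to 194 reads per treated library and 603 to 705 per DMSO library. In 501mel the inhibitor libraries had 6.45, 6.43 and 6.18 log2 CPM and DMSO libraries 6.24, 6.57 and 6.44 log2 CPM, which overlap (-0.06 ± 0.14, adjusted p = 0.949).

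Both siRNAs lowered GINS1 in both lines. With siSCD_1 it had 5.21, 5.05 and 4.76 log2 CPM in IGR37, against 7.22, 7.31 and 7.32 log2 CPM with siCTR_1 (-2.28 ± 0.12, adjusted p = 1.38e-09). In 501mel it had 4.27, 4.38 and 3.94 log2 CPM with siSCD_1 and 7.28, 7.36 and 7.30 log2 CPM with siCTR_1, an 8.66-fold fall (-3.11 ± 0.12, adjusted p = 4.05e-11). No treated library came near a control library in either line. With siSCD_2 the values were 4.54, 4.80 and 4.61 log2 CPM in IGR37 against 6.88, 6.97 and 6.98 log2 CPM with siCTR (-2.29 ± 0.14, adjusted p = 1.53e-12), and 4.53, 3.74 and 3.92 log2 CPM in 501mel against 6.35, 6.21 and 6.44 log2 CPM with siCTR (-2.27 ± 0.14, adjusted p = 2.45e-12). GINS1 was thus about 5-fold lower with siSCD_2 in both lines (4.89-fold and 4.83-fold). By size of fall it ranked 211 of 13364 genes with the inhibitor in IGR37, 75 and 25 of 13066 with siSCD_1 in IGR37 and 501mel, and 282 and 169 of 13364 with siSCD_2 in IGR37 and 501mel.

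The rest of the helicase followed with smaller and less even changes. In IGR37, 12 of the 12 helicase genes fell with the inhibitor, 12 with siSCD_1 and 9 with siSCD_2; in 501mel 9 fell with siSCD_1 and 10 with siSCD_2. MCM4, a subunit of the ring, had 5.92, 5.97 and 5.84 log2 CPM with the inhibitor in IGR37, against 7.44, 7.65 and 7.59 log2 CPM under DMSO (-1.65 ± 0.08, adjusted p = 2.74e-14). It was called lower in 5 comparisons, as were MCM5, MCM6, MCM7, GINS2 and the activation factor MCM10. The MCM5 call with siSCD_2 in 501mel was marginal (-0.30 ± 0.12, adjusted p = 0.0449): it was lost without a variance trend, after quantile normalization and when centred (adjusted p = 0.0629 to 0.0763), and without any one library other than siSCD_2 library 3 (adjusted p = 0.0508 to 0.178). MCM6 showed a large change with siSCD_2 in IGR37, at 4.80, 4.63 and 4.59 log2 CPM against 5.78, 6.07 and 5.87 log2 CPM with siCTR (-1.24 ± 0.11, adjusted p = 7.21e-10), and a smaller one in 501mel (-0.30 ± 0.11, adjusted p = 0.0259), where the call was lost without siCTR library 1 (-0.22, adjusted p = 0.151), siCTR library 3 (adjusted p = 0.0696) or siSCD_2 library 2 (adjusted p = 0.0706).

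MCM3 was the ring subunit that moved least with the siRNAs. It fell in IGR37 with the inhibitor (-0.88 ± 0.20, adjusted p = 0.000767) and with siSCD_1 (-0.64 ± 0.18, adjusted p = 0.00933; 0.0824 in the fit of these groups alone; -0.36 without siSCD_1 library 2), but its changes were 0.06 with siSCD_1 in 501mel, 0.00 with siSCD_2 in 501mel and 0.14 with siSCD_2 in IGR37, none of them called. In the last of these its libraries disagreed, at 7.41, 6.32 and 7.52 log2 CPM with siSCD_2 against 6.76, 7.07 and 7.01 log2 CPM with siCTR. Library 2 of IGR37 siSCD_2 lay apart from the other two in the same way for FEN1 and RFC2, described below. GINS3 and GINS4, the remaining GINS subunits, were not called with siSCD_2 in IGR37 (-0.31 ± 0.15 and -0.23 ± 0.16), where GINS1 was more than 4-fold lower.

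**Figure D3:**
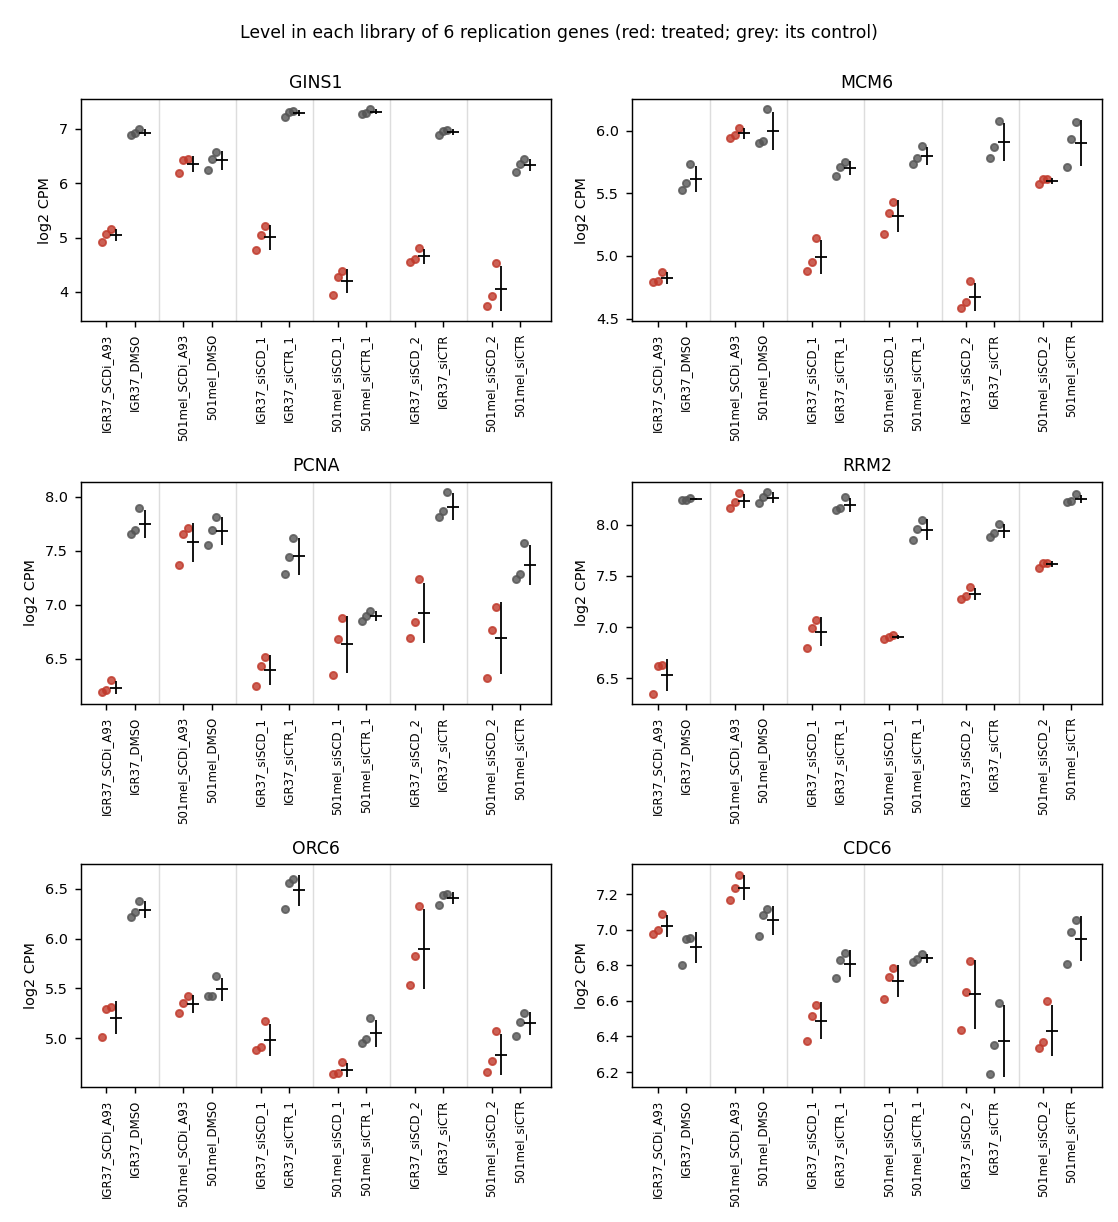
Level (log2 CPM, vertical axes, which differ between panels) of GINS1, MCM6, PCNA, RRM2, ORC6 and CDC6 in every library of the 12 groups; points are libraries, and the black mark and bar are mean and SD of 3. Treated libraries (red) of GINS1 lie under their controls (grey) in 5 of 6 pairs, whereas those of CDC6 lie under them in 3 and above them in 2.

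Of the 5 licensing genes, 4 fell in IGR37 with the inhibitor, 5 with siSCD_1 and 4 with siSCD_2, and in 501mel 3 fell with siSCD_1 and 4 with siSCD_2. CDT1, which brings the MCM ring to the origin, and GMNN (geminin), which blocks CDT1 after S phase begins, were lower in 5 comparisons. With siSCD_2 in IGR37 CDT1 had 4.76, 5.23 and 4.65 log2 CPM, against 6.53, 6.65 and 6.55 log2 CPM with siCTR (-1.70 ± 0.12, adjusted p = 2.45e-11), the widest gap of the role. In 501mel CDT1 had 6.48, 6.29 and 6.0 log2 CPM with siSCD_1 and 7.34, 7.06 and 7.09 log2 CPM with siCTR_1 (-0.90 ± 0.12, adjusted p = 1.36e-05). The origin recognition subunit ORC1 had 2.95, 2.92 and 2.73 log2 CPM with the inhibitor in IGR37 and 3.89, 4.26 and 4.11 log2 CPM under DMSO (-1.22 ± 0.19, adjusted p = 7.47e-06). Its libraries there held 31 to 41 reads with the inhibitor, so single reads weigh more than for CDT1.

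ORC1 was again the most changed licensing gene with siSCD_2 in 501mel, at 3.35, 3.04 and 3.56 log2 CPM against 4.10, 4.17 and 4.01 log2 CPM with siCTR (-0.78 ± 0.19, adjusted p = 0.00184). With siSCD_1 in IGR37 that place went to ORC6, the smallest subunit of the origin recognition complex, at 4.91, 4.88 and 5.17 log2 CPM against 6.30, 6.55 and 6.59 log2 CPM with siCTR_1 (-1.49 ± 0.12, adjusted p = 1.15e-07). Neither pair of groups overlapped.

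CDC6, the loader that works with CDT1, did not follow. With the inhibitor it had 6.97, 7.0 and 7.09 log2 CPM in IGR37, against 6.80, 6.96 and 6.95 log2 CPM under DMSO (0.12 ± 0.11, adjusted p = 0.384), where the other 4 licensing genes fell by 1.05 or more. It rose with siSCD_2 in IGR37, at 6.65, 6.44 and 6.83 log2 CPM against 6.19, 6.59 and 6.35 log2 CPM with siCTR (0.26 ± 0.11, adjusted p = 0.0447). These groups overlap, and the call was lost in 6 of 9 other settings and without 4 of the 6 libraries, each left out in turn; scaled on spike-ins the value was -0.14. CDC6 fell with siSCD_1 in IGR37 (-0.32 ± 0.08, adjusted p = 0.00487) and with siSCD_2 in 501mel (-0.52 ± 0.11, adjusted p = 0.000348).

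Of the 7 polymerase and primase genes, 6 fell with the inhibitor in IGR37, 7 with siSCD_1 and 5 with siSCD_2, and in 501mel 4 fell with siSCD_1 and 3 with siSCD_2. The test of the difference between lines called 6 of the 7 for the inhibitor, 0 for siSCD_1 and 1, POLD1, for siSCD_2; for siSCD_1, 2 had an unadjusted p under 0.05 by limma. POLE2, the second subunit of the leading-strand polymerase epsilon, had 0.12, 0.41 and 1.38 log2 CPM with the inhibitor in IGR37, against 2.13, 2.54 and 1.87 log2 CPM under DMSO (-1.55 ± 0.32, adjusted p = 0.000286). With siSCD_1 in IGR37 it had 1.83, 1.29 and 0.27 log2 CPM, against 2.91, 2.77 and 2.96 log2 CPM with siCTR_1 (-1.76 ± 0.34, adjusted p = 0.000847). Those inhibitor libraries held 5, 7 and 12 POLE2 reads, and those siSCD_1 libraries 20, 6 and 4, so counting error is large for these changes.

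POLE, the catalytic subunit, had more reads: with siSCD_1 in 501mel it had 4.56, 5.15 and 4.81 log2 CPM, against 5.75, 5.55 and 5.56 log2 CPM with siCTR_1 (-0.78 ± 0.15, adjusted p = 0.000551). With siSCD_2 in 501mel POLE2 had 2.90, 2.32 and 2.87 log2 CPM, against 3.56, 3.53 and 3.56 log2 CPM with siCTR (-0.86 ± 0.32, adjusted p = 0.0358), a call lost without any of the 3 siCTR libraries (adjusted p = 0.0711 to 0.076) or without siSCD_2 library 2 (-0.67, adjusted p = 0.156). With siSCD_2 in IGR37 the largest change was that of POLD1, at 3.82, 4.28 and 3.26 log2 CPM against 4.75, 5.49 and 5.85 log2 CPM with siCTR (-1.58 ± 0.22, adjusted p = 1.7e-06). Its groups are apart but each spans more than 1 log2 unit. PRIM1, the catalytic primase subunit that makes RNA primers, was not called with the inhibitor in IGR37 (-0.32 ± 0.23, adjusted p = 0.279) and fell there with siSCD_2 (-1.20 ± 0.23, adjusted p = 0.000138). POLA1, the catalytic subunit of polymerase alpha, was called lower with the inhibitor in IGR37 (-0.44 ± 0.12, adjusted p = 0.00371, or 0.109 scaled on spike-ins) and with siSCD_1 in both lines. It was not called with siSCD_2 in IGR37 (-0.11 ± 0.12) or in 501mel (0.22 ± 0.12, or 0.35 with adjusted p = 0.0269 without siCTR library 3). The POLD1 call with the inhibitor in IGR37 (-0.55) was lost without a variance trend and on spike-in scaling (adjusted p = 0.0747 and 0.154). It was also lost without DMSO library 1 or 3 or inhibitor library 2 or 3, each left out alone (adjusted p = 0.0718 to 0.15).

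PCNA, the sliding clamp that holds polymerases on DNA, fell most with the inhibitor in IGR37, at 6.21, 6.30 and 6.19 log2 CPM against 7.66, 7.90 and 7.69 log2 CPM under DMSO (-1.51 ± 0.14, adjusted p = 2.77e-09). It fell with both siRNAs in IGR37 and with siSCD_2 in 501mel. With siSCD_1 in 501mel it had 6.88, 6.35 and 6.68 log2 CPM, against 6.85, 6.95 and 6.90 log2 CPM with siCTR_1, which overlap (-0.26 ± 0.12, adjusted p = 0.0882; -0.38, adjusted p = 0.0197, without siSCD_1 library 1). The clamp loader subunits RFC2 to RFC5 were lower in 3 to 5 comparisons each. RFC2 had the largest change of the role with siSCD_1, at 4.63, 4.67 and 4.79 log2 CPM in IGR37 against 5.98, 6.14 and 6.24 log2 CPM with siCTR_1 (-1.42 ± 0.10, adjusted p = 5.3e-08), and at 4.69, 4.64 and 4.62 log2 CPM in 501mel against 5.78, 5.58 and 5.79 log2 CPM with siCTR_1 (-1.06 ± 0.10, adjusted p = 9.08e-07). The RFC2 libraries of each group were tightly placed there. With siSCD_2 in IGR37 they were not, at 5.17, 4.23 and 5.71 log2 CPM against 5.90, 5.78 and 5.81 log2 CPM with siCTR (-0.79 ± 0.21, adjusted p = 0.00326; -0.39, adjusted p = 0.0357, without library 2).

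RFC5 had the largest change of the role with siSCD_2, at 4.75, 4.21 and 4.14 log2 CPM in IGR37 against 5.60, 5.58 and 5.52 log2 CPM with siCTR (-1.20 ± 0.14, adjusted p = 1.29e-07). In 501mel it had 5.57, 5.09 and 5.16 log2 CPM with siSCD_2 and 6.15, 6.33 and 6.23 log2 CPM with siCTR (-0.96 ± 0.14, adjusted p = 4.87e-06). RFC4 differed from its partners in IGR37, with values of -0.17 ± 0.10 for the inhibitor and -0.10 ± 0.10 for siSCD_2, neither called. FEN1, the nuclease that trims Okazaki fragment flaps, fell in IGR37 with the inhibitor (-0.80 ± 0.19, adjusted p = 0.0012) and with siSCD_1 (-0.88 ± 0.11, adjusted p = 1.61e-05). With siSCD_2 in IGR37 it had 7.97, 7.10 and 8.35 log2 CPM, against 7.57, 7.62 and 7.46 log2 CPM with siCTR (0.26 ± 0.19, adjusted p = 0.287), and 0.61 with an adjusted p of 0.000694 without library 2. Without that library 3 of the 42 genes were called higher in this comparison (FEN1, MCM3 and CDC6), as were 3182 of all 13364 genes. LIG1, the ligase that seals the fragments, changed by -0.60 to -0.24 in the 5 comparisons outside the 501mel inhibitor pair and was called in 4 of them; the siSCD_1 call in 501mel was lost without siCTR_1 library 1 (adjusted p = 0.095) or siSCD_1 library 2 (adjusted p = 0.0831).

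All 5 nucleotide synthesis genes fell in IGR37 in all 3 comparisons, and 4 fell with each siRNA in 501mel. RRM2, the small subunit of ribonucleotide reductase, had 6.62, 6.34 and 6.62 log2 CPM with the inhibitor in IGR37, against 8.24, 8.27 and 8.25 log2 CPM under DMSO, a 3.31-fold fall (-1.72 ± 0.07, adjusted p = 1.98e-15). With siSCD_1 it had 7.07, 6.80 and 6.99 log2 CPM in IGR37 against 8.15, 8.27 and 8.17 log2 CPM with siCTR_1 (-1.24 ± 0.08, adjusted p = 1.21e-08), and 6.89, 6.92 and 6.90 log2 CPM in 501mel against 7.85, 7.96 and 8.05 log2 CPM with siCTR_1 (-1.05 ± 0.08, adjusted p = 5.88e-08). With siSCD_2 it was 0.62 lower in IGR37 and 0.64 lower in 501mel, both called. The RRM2 groups were apart in all 5 of these pairs.

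TYMS, which makes thymidylate, was the most changed gene of the role with siSCD_2 in 501mel, at 6.55, 6.61 and 6.76 log2 CPM against 7.61, 7.43 and 7.45 log2 CPM with siCTR (-0.86 ± 0.10, adjusted p = 1.11e-07). TK1, the thymidine salvage kinase, was the most changed with siSCD_2 in IGR37, at 5.46, 5.58 and 5.30 log2 CPM against 6.44, 6.40 and 6.57 log2 CPM with siCTR (-1.03 ± 0.10, adjusted p = 1.48e-08). RRM2, TYMS and TK1 were each called lower in 5 comparisons. DUT, which removes dUTP so that uracil is not built into DNA, was the exception: with siSCD_1 in 501mel it had 7.68, 7.66 and 7.57 log2 CPM, against 7.28, 7.28 and 7.39 log2 CPM with siCTR_1 (0.32 ± 0.08, adjusted p = 0.00394; 0.20, adjusted p = 0.224, scaled on spike-ins). In IGR37 with siSCD_1 it had 6.97, 6.85 and 7.12 log2 CPM, against 7.59, 7.52 and 7.45 log2 CPM with siCTR_1 (-0.54 ± 0.08, adjusted p = 7.1e-05). The DUT groups did not overlap in either line, and the directions were opposite. Its call with the inhibitor in IGR37 (-0.32 ± 0.10, adjusted p = 0.00777) was lost after quantile normalization (adjusted p = 0.0871) and on spike-in scaling (adjusted p = 0.27). With siSCD_2 in 501mel DUT was called at -0.25 ± 0.10 (adjusted p = 0.0436), against -0.12 (adjusted p = 0.336) without siSCD_2 library 1; that call was also lost without siCTR library 1 (adjusted p = 0.197) or 2 (adjusted p = 0.0974), in the fit of these groups alone (adjusted p = 0.204) and without a variance trend (adjusted p = 0.0722). The annotation lists 8 DUT pseudogenes, which could share its reads.

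Chromatin and fork protection genes fell fully in 2 comparisons and partly in 3. All 6 genes fell in IGR37 with the inhibitor and with siSCD_1, while 2 of 6 fell there with siSCD_2, where the median of the role was -0.15 and those of the other 5 roles -0.57 to -0.83. In 501mel 4 fell with each siRNA. CHAF1B, a subunit of the assembly factor that places histones on new DNA, had 3.84, 4.12 and 3.29 log2 CPM with the inhibitor in IGR37, against 5.62, 5.34 and 5.31 log2 CPM under DMSO (-1.67 ± 0.16, adjusted p = 4.53e-09). It had 4.64, 4.81 and 4.44 log2 CPM with siSCD_2 in IGR37, against 5.13, 5.13 and 5.20 log2 CPM with siCTR (-0.52 ± 0.16, adjusted p = 0.00939; -0.42, adjusted p = 0.0517, without the third siSCD_2 library). In each pair all treated libraries were the lower ones.

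In 501mel CHAF1B had 3.89, 3.65 and 3.92 log2 CPM with siSCD_2, against 4.90, 4.72 and 5.10 log2 CPM with siCTR (-1.09 ± 0.16, adjusted p = 6.03e-06). With siSCD_1 in 501mel it had 4.88, 4.82 and 4.51 log2 CPM, against 5.80, 5.83 and 5.79 log2 CPM with siCTR_1 (-1.07 ± 0.13, adjusted p = 1.04e-05). UHRF1, which brings the maintenance methyltransferase DNMT1 to newly copied DNA, had the most uneven libraries: with siSCD_1 in IGR37 it had 2.74, 0.32 and 3.64 log2 CPM, or 38, 3 and 43 reads, against 3.96, 4.12 and 3.92 log2 CPM with siCTR_1 (-1.77 ± 0.55, adjusted p = 0.0203). Without library 2, the one with 3 reads, its change was -0.81 (adjusted p = 0.0418), and it was not called without siCTR_1 library 1 (adjusted p = 0.0518) or library 2 (adjusted p = 0.0631). In 501mel with siSCD_1 UHRF1 had 4.69, 3.92 and 4.51 log2 CPM, against 3.55, 3.78 and 2.90 log2 CPM with siCTR_1, with every treated library the higher (0.96 ± 0.55, adjusted p = 0.177; adjusted p = 0.0436 with these 2 groups alone and 0.0117 with limma voom). CLSPN and TIMELESS, which steady the moving fork, fell with the inhibitor in IGR37 by 1.35 and 0.61 and were not called there with siSCD_2 (-0.18 ± 0.16 and 0.11 ± 0.13; CLSPN -0.39, adjusted p = 0.0486, without the third siSCD_2 library).

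The lines differed in their response to the inhibitor for nearly the whole set and to siSCD_1 for a part of it, while for siSCD_2 the share of genes that differed was close to that of all genes. The test of the difference, the IGR37 change minus the 501mel change, called 38 of the 42 genes for the inhibitor, all more negative in IGR37, against 15.3% of all genes in that direction and 27.6% in either. The 4 largest were GINS1 (-1.82 ± 0.20, adjusted p = 1.61e-07), MCM4 (-1.72 ± 0.11), RRM2 (-1.69 ± 0.10) and CHAF1B (-1.67 ± 0.23). For siSCD_1, 16 genes were more negative in IGR37 (10.3% of all genes) and 1, GINS1, less negative (0.84 ± 0.17, adjusted p = 0.00343; 10% of all genes), 17 against 20.3% of all genes in either direction. Scaled on spike-ins, 8 were more negative in IGR37 and 1 less negative, where 568 and 1014 of all 13066 genes were. Without that scaling 1342 and 1313 of all genes were. The largest were UHRF1 (-2.73 ± 0.78, adjusted p = 0.0229), ORC6 (-1.13 ± 0.17, adjusted p = 0.000391), MCM10 (-0.97 ± 0.18) and DUT (-0.86 ± 0.11). Without IGR37 siSCD_1 library 2 the UHRF1 difference was -1.78 (adjusted p = 0.00534). It was not called without 4 others, each left out alone: siSCD_1 library 1 or 3 of 501mel, siCTR_1 library 3 of 501mel and siCTR_1 library 2 of IGR37 (adjusted p = 0.0534 to 0.0584).

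For siSCD_2 the lines differed least in number, with 7 genes more negative in IGR37 (9.47% of all genes) and 3 less negative (11.6%), or 10 of 42 against 21.1% of all genes in either direction. The largest were POLD1 (-1.04 ± 0.31, adjusted p = 0.0166), CDT1 (-0.97 ± 0.17, adjusted p = 0.00019), MCM6 (-0.94 ± 0.15) and, in the other direction, CDC6 (0.78 ± 0.15, adjusted p = 0.000477). POLD1 was not called without siCTR library 3 (adjusted p = 0.0667) or the third siSCD_2 library (adjusted p = 0.0527) of IGR37. Scaled on spike-ins, 0 of the 42 genes were called more negative and 1 less negative, where 239 and 531 of all 13364 genes were. Without that scaling 1266 and 1553 of all genes were. POLD1, CDT1 and MCM6 had adjusted p of 0.17, 0.0974 and 0.0937 on spike-in scaling. Without IGR37 siSCD_2 library 2 the number less negative was 8. Between siRNAs within a line, 20 genes fell with both in 501mel, 69% of each list of 29. Each list is also 69% of the 42 genes, so unrelated lists would share about as many. In IGR37 the 30 that fell with siSCD_2 all fell with siSCD_1, 71.4% of its 42. That was fixed in advance, because all 42 fell with siSCD_1. Neither overlap thus measures agreement between the siRNAs. Of all 42 genes 17 were lower in 5 comparisons: CDT1, GMNN, MCM4, MCM5, MCM6, MCM7, GINS1, GINS2, MCM10, POLA2, RFC3, RFC5, RRM2, TYMS, TK1, CHAF1A and CHAF1B. The share of all genes lower in as many comparisons was not counted, so this number has no background beside it. The CHAF1A call with siSCD_2 in 501mel was lost without siSCD_2 library 2 (adjusted p = 0.0811), and the TYMS call with siSCD_1 in 501mel after quantile normalization (adjusted p = 0.106). Only CDC6, MCM3, FEN1 and UHRF1 were lower in as few as 2.

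**Figure D4:**
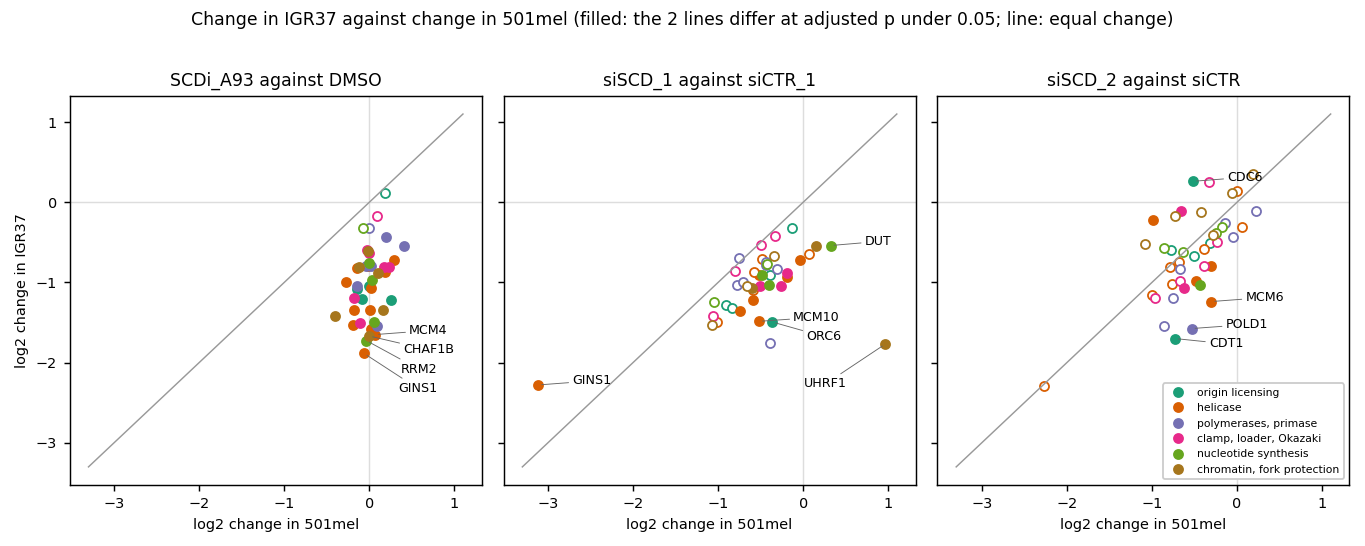
Log2 change in IGR37 (vertical axes) against the change in 501mel (horizontal axes) for the 42 genes, coloured by role, in 1 panel per perturbation; filled points passed the test of the difference between lines, and the grey line marks equal change. With the inhibitor 38 points are filled and lie below the line, with siSCD_1 17 are filled, and with siSCD_2 10.

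Under DMSO alone the replication genes were somewhat lower in IGR37 than in 501mel. Of the 42, 24 were lower in IGR37 (29.7% of all genes) and 3 higher (31.1% of all genes, and 60.8% in either direction), with a median difference of -0.34. Scaled on spike-ins, 14 were lower and 3 higher. FEN1 had 7.78, 7.67 and 7.89 log2 CPM in IGR37 and 9.94, 9.49 and 9.86 log2 CPM in 501mel (-1.98 ± 0.19, adjusted p = 2.07e-09). PRIM1 had 2.54, 2.79 and 2.65 log2 CPM in IGR37 and 4.59, 4.53 and 4.75 log2 CPM in 501mel (-1.97 ± 0.23, adjusted p = 6.79e-08). Both genes were about 4-fold lower in IGR37 before any SCD perturbation. Over the last 500 bases of each the annotation places another gene on the same strand, which could share its reads. These are FADS2 for FEN1, and NACA and AC117378.1 for PRIM1, and their part in the difference was not tested. TIMELESS had 5.50, 5.38 and 5.47 log2 CPM in IGR37 and 7.30, 7.13 and 7.22 log2 CPM in 501mel (-1.76 ± 0.13, adjusted p = 1.26e-11).

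MCM3 had 6.92, 6.90 and 7.21 log2 CPM in IGR37 and 8.39, 8.12 and 8.36 log2 CPM in 501mel (-1.28 ± 0.20, adjusted p = 4.55e-06). TYMS had 7.01, 7.13 and 7.08 log2 CPM in IGR37 and 7.92, 7.71 and 7.91 log2 CPM in 501mel (-0.78 ± 0.10, adjusted p = 1.67e-07). The 3 genes higher in IGR37 were ORC6, at 6.22, 6.38 and 6.27 log2 CPM against 5.63, 5.42 and 5.43 log2 CPM (0.79 ± 0.14, adjusted p = 3.22e-05), GINS4 (0.66 ± 0.16, adjusted p = 0.00101) and GINS1 (0.51 ± 0.14, adjusted p = 0.0026). PCNA and RRM2 had differences of 0.06 ± 0.14 and -0.02 ± 0.07, not called.

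**Figure D5:**
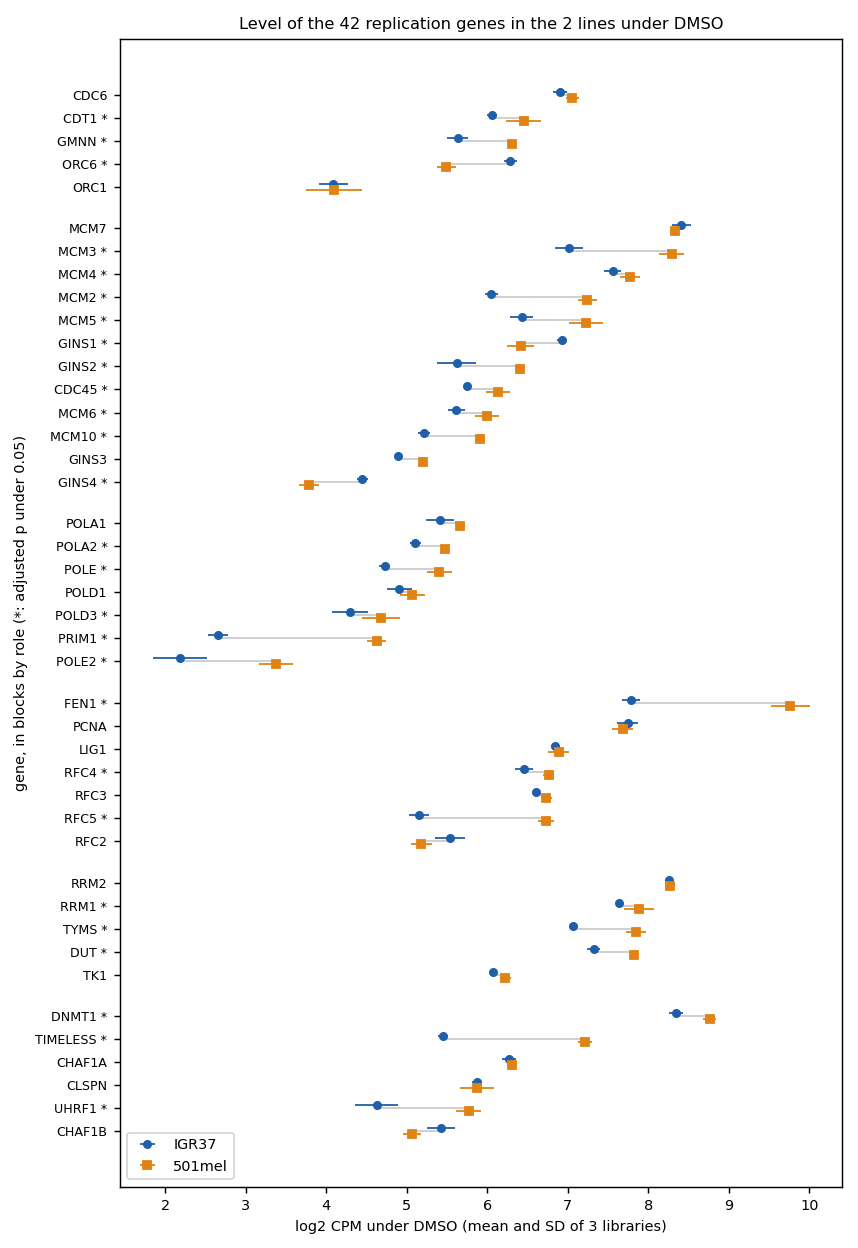
Level under DMSO (log2 CPM, horizontal axis) of the 42 genes in IGR37 (circles) and 501mel (squares), as mean and SD of 3 libraries, in blocks by role; a star marks an adjusted p under 0.05. FEN1, PRIM1, TIMELESS and RFC5 show the widest gaps, with IGR37 the lower line.

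Other genes of the same processes moved with the set but less completely. Of 42 further replication genes, 25 fell and 3 rose with the inhibitor in IGR37, 30 fell and 2 rose with siSCD_1 in IGR37, 18 fell and 6 rose with siSCD_1 in 501mel, 19 fell and 3 rose with siSCD_2 in IGR37, and 16 fell and 0 rose with siSCD_2 in 501mel and 0 were called with the inhibitor in 501mel. HELLS, a chromatin remodeller, had the largest fall with the inhibitor in IGR37 (-2.06 ± 0.13), and POLD4, the small subunit of polymerase delta, the largest increase (1.09 ± 0.16). Of further nucleotide genes, 20 of 30 fell and 1 rose with the inhibitor in IGR37, 20 of 29 and 1 with siSCD_1 in IGR37, 16 of 29 and 3 with siSCD_1 in 501mel, 15 of 30 and 1 with siSCD_2 in each line, and 0 of 30 were called with the inhibitor in 501mel; of all genes, 19.4% to 23.1% were called lower in the 5 comparisons with calls. RRM2B, the p53-regulated small subunit of ribonucleotide reductase, rose in 4 of the 5 comparisons in which RRM2 fell: by 0.45 ± 0.15 with the inhibitor in IGR37 (adjusted p = 0.0178), by 0.47 ± 0.16 and 1.02 ± 0.16 with siSCD_1 in IGR37 and 501mel (adjusted p = 0.0257 and 6.74e-05), and by 0.55 ± 0.15 with siSCD_2 in 501mel (adjusted p = 0.00548). Its value with siSCD_2 in IGR37 was 0.22 ± 0.15, not called.

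Of 26 genes of E2F and G1/S control, 18 fell and 3 rose with the inhibitor in IGR37, 15 and 3 with siSCD_1 in IGR37, 12 and 5 with siSCD_1 in 501mel, 8 and 7 with siSCD_2 in IGR37, and 13 and 5 with siSCD_2 in 501mel. In these 5 comparisons 19.4% to 23.1% of all genes were called lower and 16.7% to 23.2% higher. With siSCD_2 in IGR37 those shares were 22.7% and 23.2%, and the median of the list was -0.02. With the inhibitor in 501mel the only gene of the list called was CDKN1A, on 0, 0 and 0 reads with the inhibitor against 1, 2 and 1 under DMSO. E2F1, an activator of many replication genes, had 4.16, 3.99 and 3.55 log2 CPM with siSCD_2 in IGR37, against 6.18, 6.19 and 6.32 log2 CPM with siCTR (-2.33 ± 0.13, adjusted p = 4.55e-13), the largest fall of the list there. Its other comparisons were chosen after their values were seen: E2F1 fell by 0.99 ± 0.13 with the inhibitor in IGR37, by 1.54 ± 0.11 and 1.39 ± 0.11 with siSCD_1 in IGR37 and 501mel, and by 1.58 ± 0.13 with siSCD_2 in 501mel, and it was not called with the inhibitor in 501mel (0.18 ± 0.13). CDKN1A, which encodes the p21 inhibitor of G1/S kinases, rose in IGR37 by 1.44 ± 0.40 with the inhibitor, 2.26 ± 0.59 with siSCD_1 and 2.07 ± 0.40 with siSCD_2. In 501mel it had 0 to 2 reads in every library, too few for a fold.

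Genes of mitosis fell alongside in IGR37: 15 of 24 with the inhibitor (23.1% of all genes), 24 with siSCD_1 (19.4%) and 20 with siSCD_2 (22.7%). In 501mel 17 fell with siSCD_1 (22% of all genes) and 6 with siSCD_2 (19.5%), while 29 of the 42 replication genes fell with each. Of the mitosis genes 2 rose with siSCD_1 and 1 with siSCD_2 in 501mel. The median over the mitosis list with siSCD_2 in 501mel was -0.09, against -0.51 for the replication genes. Melanocyte lineage markers moved in these comparisons too. Their summed level was 3970 to 4230 CPM with the inhibitor in IGR37 against 5770 to 5920 CPM under DMSO, 6250 to 6610 CPM with siSCD_1 in IGR37 against 6800 to 7140 CPM with siCTR_1, and 4390 to 4490 CPM with siSCD_2 in IGR37 against 7120 to 7140 CPM with siCTR. In 501mel it was 5780 to 5860 CPM with the inhibitor against 5630 to 5700 CPM under DMSO, 3080 to 3130 CPM with siSCD_1 against 4310 to 4490 CPM with siCTR_1, and 3690 to 4060 CPM with siSCD_2 against 4270 to 4380 CPM with siCTR. Of the 9 markers 7, 3 and 6 fell in IGR37 with the inhibitor, siSCD_1 and siSCD_2, and 0, 7 and 5 in 501mel. In the same order 1, 1 and 3 rose in IGR37, and 0, 2 and 3 in 501mel. With siSCD_2 the largest rise was that of S100B, by 2.16 ± 0.09 in IGR37 and 1.83 ± 0.09 in 501mel. The 4 fibroblast markers measured all fell with the inhibitor in IGR37, at a median of -2.11, with a summed level of 8.47 to 11.3 CPM against 25.7 to 27.1 CPM under DMSO. With siSCD_2 in IGR37 2 of them rose and 1 fell, at 31.9 to 34.8 CPM against 19.6 to 26.4 CPM with siCTR. With siSCD_1 in IGR37 neither of the 2 measured was called, at 18.3 to 23.2 CPM against 21.7 to 22.1 CPM with siCTR_1. In 501mel the summed level was 6.58 to 8.33 CPM with the inhibitor against 5.74 to 6.82 CPM under DMSO, 6.12 to 6.97 CPM with siSCD_1 against 2.79 to 3.82 CPM with siCTR_1, and 15.2 to 18.6 CPM with siSCD_2 against 10.6 to 13.4 CPM with siCTR. Of the 2 epithelial and 2 blood and endothelial markers measured, with summed levels of at most 10.9 and 5.29 CPM, 1 of each pair rose with siSCD_1 in 501mel and 1 epithelial marker with siSCD_2 in IGR37. The part of these markers in the results on replication genes was not tested.

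GINS1 also carries a 7-base word in its 3' untranslated region that earlier results of these data had linked with siSCD#1. The words GCTTCCT and CTTCCTA were taken from those results, so the changes below are no separate check of the link. The siRNA sequences were not given in the sources used here, so a match of the words with them was not tested. On GENCODE transcripts (GRCh38), 6 of the 42 genes (14.3%) hold the first word, against 19.4% of all genes in the siSCD_1 table with an annotated region. The second is in 8 (19%), against 14.2% of all genes. GINS1 holds it at 2 places on the plus strand of chromosome 20. GINS4 also holds it at 2 places, and the first word at 1. Both GINS1 sites are shown 5' to 3' with the word in capitals.
GINS1 first site, chr20:25446174-25446202: tgtacactattCTTCCTActcttttttgg
GINS1 second site, chr20:25448277-25448305: acaaggtctgtCTTCCTAggtattaatgt
The 8 genes with CTTCCTA had a median change of -0.95 with siSCD_1 in IGR37, against -0.96 for the members without it, and of -0.51 against -0.49 in 501mel. With the other siRNA, siSCD_2, these medians were -0.50 against -0.61 in IGR37 and -0.69 against -0.49 in 501mel. For GCTTCCT they were -0.24 against -0.65 in IGR37 and -0.41 against -0.51 in 501mel with siSCD_2. The 6 genes with GCTTCCT had a median of -0.77 against -0.48 in 501mel and of -0.89 against -0.96 in IGR37 with siSCD_1, while over all genes those medians were -0.11 against 0.04 and -0.08 against 0.00. For CTTCCTA, the word in GINS1, the all-gene medians with siSCD_1 were -0.0148 against 0.0167 in 501mel and -0.0598 against -0.0018 in IGR37.

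Some counts could be shared with neighbours. Within the last 500 bases of the gene, where 3' reads fall, the annotation places another gene on the same strand for 5 of the 42 (POLA2, PRIM1, POLD1, FEN1 and RRM2) and on the opposite strand for 7 (MCM2, GINS2, GINS4, RFC4, RFC5, TYMS and CHAF1A), and 7 genes have pseudogenes named after them. How the counting treated strand and shared reads was not given in the sources used here, so values of these genes are less certain.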

How the data were processed

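RNA from 36 libraries of 2 melanoma lines was sequenced from 3' ends. Per the submitters' processing notes, the authors aligned reads with STAR to hg38 and used edgeR; versions are not given in the sources used here. The authors deposited log2 CPM values in 2 tables of 24 and 12 libraries, normalised apart. The values fit log2 CPM with a prior count of 0.25: recovered reads were whole within 0.01 for 100% of values. Spike-ins (66 and 60) and 1 tagged transgene were left out of the tests.

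Each table was fitted whole with limma 3.58.1 (lmFit, contrasts, eBayes with trend; R 4.3.3), with 1 coefficient per group, no block and Benjamini-Hochberg adjustment over 13364 or 13066 genes. The procedure was tested on simulated data. Members and gene lists were chosen with earlier results of these data known. Any of the 42 genes could be named; library values are given for the largest change of each role and comparison and for calls against the role's direction, besides genes cited for contrast after their values were seen. For line differences the 4 largest calls were named, and for other lists at most the largest rise and fall. Alternatives were a fit of the compared groups only, no trend, a filter of log2 above 2 in 3 libraries, a pseudocount of 1, quantile normalization, centring, spike-in scaling, limma voom on recovered reads, a replicate block and leaving out each library. Same-numbered libraries did not deviate together (17 pairs, correlations -0.0434 to 0.0796).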

Additional observations from a re-analysis of the deposited data

Results flagged for a closer look

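The test of the difference between lines picked out the following results. With the inhibitor, 38 of the 42 genes changed differently in IGR37 and 501mel, where 27.6% of all genes did. The 4 largest differences, IGR37 minus 501mel on the log2 scale, were -1.82 for GINS1, -1.72 for MCM4, -1.69 for RRM2 and -1.67 for CHAF1B. With siSCD_1, 17 genes differed, where 20.3% of all genes did, among them UHRF1 (-2.73), ORC6 (-1.13), MCM10 (-0.97) and DUT (-0.86). DUT fell in IGR37 and rose in 501mel. With siSCD_2, 10 of the 42 differed, a share close to the 21.1% of all genes, among them POLD1 (-1.04), CDT1 (-0.97), MCM6 (-0.94) and CDC6 (0.78). Scaled on spike-ins, POLD1, CDT1 and MCM6 no longer passed the threshold (adjusted p = 0.17, 0.0974 and 0.0937). Of all 13364 genes, 770 passed it under that scaling and 2819 without it. CDC6 was called higher in IGR37 and lower in 501mel.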

How the results depend on the processing

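Scaled on spike-ins, the inhibitor in 501mel gave 8 genes higher and a median of 0.4757, siSCD_1 in 501mel gave 0 higher and a median of -0.6122, and siSCD_2 gave medians of -0.9887 in IGR37 and -1.018 in 501mel with 0 higher in IGR37. CDC6 with siSCD_2 in IGR37 turned to -0.1372 (adjusted p = 0.591). The line differences under that scaling had a median of -1.479 for the inhibitor. For siSCD_1 8 genes were lower (568 of all 13066 genes), with a median of -0.3783. For siSCD_2 0 were lower and 1 higher (239 and 531 of all 13364 genes), with a median of -0.05113. IGR37 against 501mel under DMSO had 14 lower and a median of -0.272. With the inhibitor in IGR37 the median was -0.9551 with a pseudocount of 1, -0.9349 after quantile normalization and -1.037 when centred on the library median. With siSCD_1 in 501mel 2 genes were higher in the fit of the compared groups only, after quantile normalization and with limma voom, and the median was -0.5818 when centred. With siSCD_2 in IGR37 0 genes were higher in the fit of the compared groups only, without the trend, after quantile normalization, when centred and with the replicate block. In the fit of the compared groups only, 4 genes were lower in the siSCD_2 line difference and 5 higher in IGR37 under DMSO. Centring gave medians of -0.3498 for the siSCD_1 line difference and -0.3986 under DMSO, and quantile normalization -0.3088 under DMSO. The causes were not tested. Same-numbered libraries did not deviate together over all genes, which does not exclude that they were paired. The block result is given only here and among the other settings counted for CDC6. The block fit left out the third siSCD_2 library of IGR37, because its column number matches no sample title of that group. It moved no other count of the 42 genes by over 1.5 times.

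Leaving out each library in turn, genes lower numbered 38 to 39 with the inhibitor in IGR37, 41 to 42 and 27 to 30 with siSCD_1 in IGR37 and 501mel, and 28 to 30 and 25 to 30 with siSCD_2 in IGR37 and 501mel. Medians ran from -0.9979 to -0.921 with the inhibitor in IGR37 and from -0.5549 to -0.4854 with siSCD_2 in 501mel. Genes higher with siSCD_2 numbered 0 to 3 in IGR37 and 0 to 1 in 501mel. The line differences ran from -1.038 to -0.9238 in median for the inhibitor and from -0.5143 to -0.3864 for siSCD_1 with 12 to 19 genes lower, and from 2 to 8 higher and 4 to 7 lower for siSCD_2. Under DMSO the median ran from -0.3485 to -0.2927. Depth limits POLE2 most, with as few as 4 reads in a library, and UHRF1 in 1 library with 3.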
